A study of Drosophila melanogaster with 9 samples.

Results

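Sphingolipid and ceramide metabolism was followed through 9 genes, *lace*, *schlank*, *ifc*, *nSMase*, *CDase*, *bwa*, *Sk1*, *Sk2* and *Sply*, in larval CNS with receptor signalling raised in glia and in control CNS. The genes were taken by symbol from the probe table of the array, where each had 1 probe set of its own, so 9 of 11982 singly named genes are described here. RNA came from the whole CNS of wandering larvae of the third instar raised at 25 °C, 10 to 15 larvae a sample. In the first tissue an activated form of the FGF receptor Heartless was made in glia (repoGal4>UAS-Htl[ACT]), in the second the insulin receptor was overexpressed in glia (repoGal4>UAS-InR), and controls carried the driver alone (repoGal4/+). Each genotype had 3 samples on Affymetrix Drosophila Genome 2.0 arrays. The glial driver *repo-Gal4*, which all 3 genotypes share, acts across glial subtypes. Larvae were pooled within a sample, and that samples of a genotype came from separate dissections is not stated beyond their preparation in triplicate. The p-values therefore measure the spread between these samples.

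Sphingolipids are membrane lipids built on a long-chain base. Serine palmitoyltransferase joins serine to a fatty acyl-CoA, a reductase and ceramide synthase turn the product into dihydroceramide, and a desaturase makes ceramide. In flies ceramide mainly receives a phosphoethanolamine or a sugar head group, and the resulting lipids are abundant in the glia that wrap neurons. Ceramidases cut ceramide to sphingosine, which sphingosine kinases phosphorylate and a lyase cleaves, the exit from the pathway.

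The values are linear MAS5 signals, scaled to the same trimmed mean on every array, and were tested as log2 signals with limma over the brighter 8552 genes and unnamed probe sets. A gene was called higher or lower at 1.5-fold or more (a log2 fold change of 0.58 either way) with a Benjamini-Hochberg adjusted p of 0.05 or less. All 9 genes passed the filter on signal. Over all tested genes the median log2 fold change against control was −0.15 in *Htl[ACT]* tissue and −0.09 in *InR* tissue, and between these tissues, *Htl[ACT]* over *InR*, −0.08. With each array centred on its median these values were 0.02, −0.20 and 0.20. The split of all calls moved with this centring. *Htl[ACT]* against control gave 1111 higher and 1640 lower genes, or 1518 and 1027 when centred, *InR* against control 790 and 563, or 650 and 918, and *Htl[ACT]* against *InR* 464 and 552, or 1013 and 247 when centred and 544 and 374 with quantile normalization. Array medians were 31.5 to 41.8. Summed signals of 7 glial markers were 53740 to 66240 in *Htl[ACT]*, 44637 to 45115 in *InR* and 20921 to 25114 in control tissue. Of the 7, 6 were called higher in *Htl[ACT]* and 4 in *InR* tissue. Most of the *InR* rise in the sum was of *moody* (13224 to 14787.5, controls 2352 to 3128) and *Mdr65* (9869 to 12256, controls 2629 to 3748). *wrapper* (2974 to 3769, controls 3183.5 to 3375) and *Gs2* (5046 to 6898, controls 5281 to 7893) overlapped the controls there. Summed signals of 7 neuronal markers were 10734 to 14236 in *Htl[ACT]*, 15690 to 17403 in *InR* and 22260 to 23514 in control tissue. Of these, 7 were called lower in *Htl[ACT]* and 2 in *InR* tissue. Sums of 4 neuroblast markers were 3636 to 4194 in *Htl[ACT]*, 3834 to 4441 in *InR* and 6293 to 6519 in control tissue, with 3 of 4 called lower in *Htl[ACT]* and 2 of 4 in *InR* tissue. Sums of 4 genes listed as imaginal disc markers were 673 to 989 in *Htl[ACT]*, 1152 to 1435 in *InR* and 1816 to 2058 in control tissue. Of 3 tested, 3 were called lower in *Htl[ACT]* and 0 in *InR* tissue. Most of the sum was *ap* and *ey*, and whether they read disc tissue here was not tested. The part of these cell types in the results was not tested. The *htl* probe set read 1677 to 2346 in *Htl[ACT]* and 271 to 342 in control tissue. The *InR* probe set read 787 to 976 in *InR* and 852 to 1192 in control tissue. It was not established that these probes detect the transgene, so they do not check the label. In whole tissue, more cells of a type and more RNA per cell cannot be told apart. Both comparisons with control share the same 3 control arrays.

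*CDase*, *lace* and *ifc* were called higher in *Htl[ACT]* tissue than in control, 3 of 9 where 13.0% of all tested genes were. None was called lower by limma, with 1 gene (*nSMase*) lower at an unadjusted p under 0.05, and 19.2% of all genes were called lower. In *InR* tissue *CDase* and *Sk1* were called higher (2 of 9, against 9.24% of all genes). There none was called lower, none was lower at an unadjusted p under 0.05, and 6.58% of all genes were called. Compared directly, *Htl[ACT]* tissue had higher *CDase* and *lace* signals than *InR* tissue (2 of 9, against 5.43%) and lower *Sk1* and *bwa* signals (2 of 9, against 6.45%). All 3 *Htl[ACT]* arrays lay above all controls for 5 of the 9 genes (24.1% of all tested genes) and below them for 1 (39.7%). For *InR* these counts were 5 (20.5%) and 0 (32.1%), and for *Htl[ACT]* against *InR* arrays 4 (16.8%) and 3 (25.0%). The 9 genes had a median of 0.31 on the log2 scale in *Htl[ACT]* and of 0.41 in *InR* tissue against control, and of 0.05 between the tissues, *Htl[ACT]* over *InR*. The probe sets of *CDase*, *schlank* and *Sply* are of a type whose probes match more than 1 transcript.

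**Figure D1:**
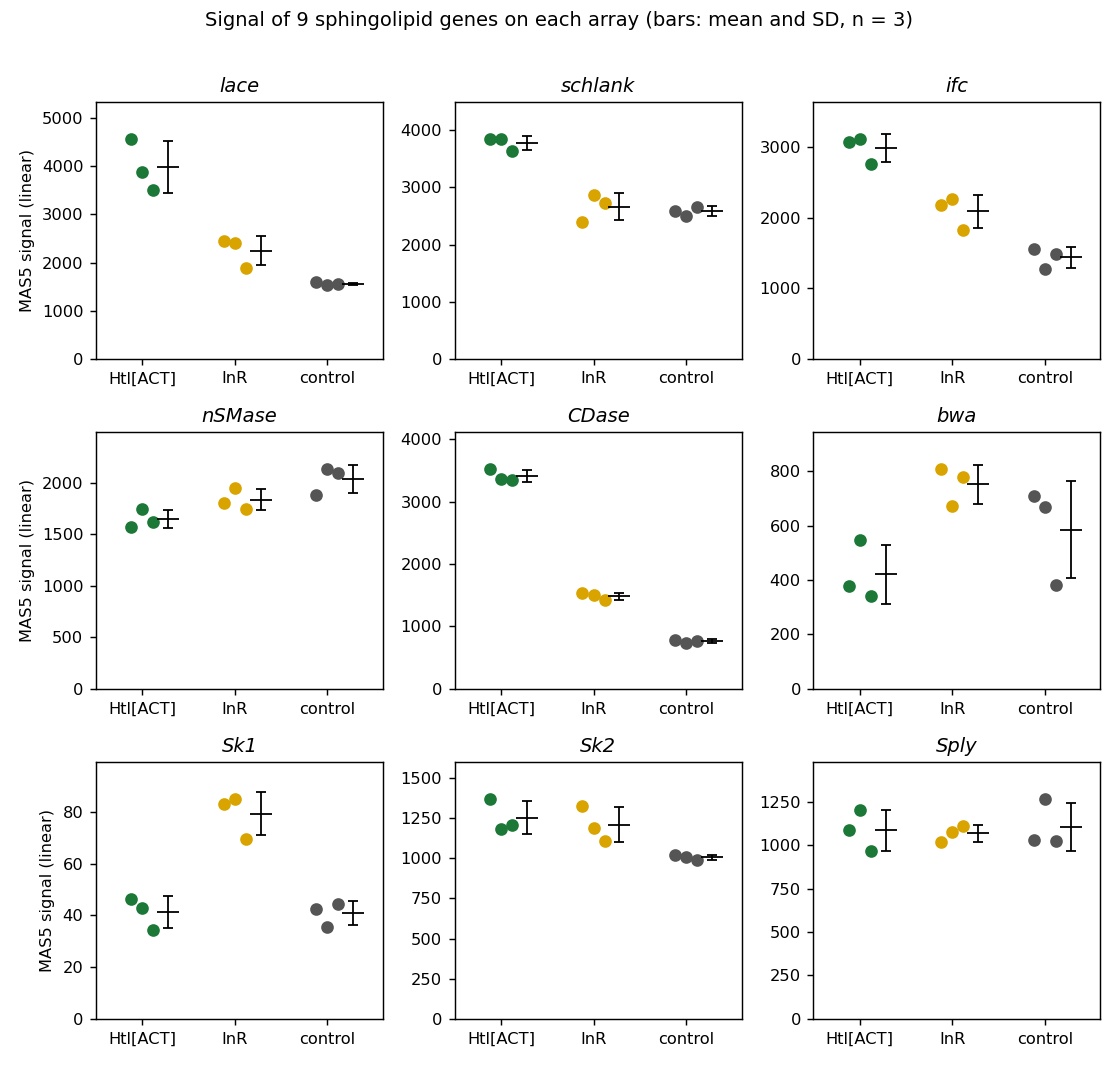
Linear MAS5 signal (y axes, starting at 0) of each of the 9 genes on the 3 Htl[ACT], 3 InR and 3 control arrays, 1 point an array, with the mean and SD of each group (n = 3) to the right of its points. For CDase, lace and ifc the 3 groups form separate steps with Htl[ACT] highest, for Sk1 only the InR arrays are raised, and for Sply all 3 groups overlap.

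*lace* encodes a subunit of serine palmitoyltransferase, the first and rate-limiting enzyme of sphingolipid synthesis. Its signal was 4567, 3875 and 3503 on the *Htl[ACT]* arrays, 2443, 2412 and 1897 on the *InR* arrays and 1588, 1544 and 1546 on the control arrays. No 2 groups overlapped, and the control arrays lay within a narrow range while the *Htl[ACT]* and *InR* arrays spread more widely. *lace* rose 2.54-fold in *Htl[ACT]* tissue, or 1.34 on the log2 scale (standard error 0.13), with a limma adjusted p of 9.55e-05. In *InR* tissue the log2 fold change was 0.52 (95% interval 0.23 to 0.81, adjusted p = 0.0155), under 1.5-fold and so not called. Without *InR* 3, the lowest of the *InR* arrays, it was 0.64 and called (adjusted p = 0.00872). Set against *InR* tissue, *Htl[ACT]* tissue had 0.82 more *lace* signal on the log2 scale (standard error 0.13, adjusted p = 0.00318). Without control 2, *InR* 2 and *InR* 3, arrays described with *Sk1*, this difference was 0.70 and not called (adjusted p = 0.107).

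*ifc* encodes the desaturase that turns dihydroceramide into ceramide. It read 3071, 3111 and 2750.5 in *Htl[ACT]* tissue, 2176, 2257 and 1828 in *InR* tissue and 1557, 1273 and 1479 in control tissue. The 3 groups were again in separate steps. *ifc* rose 2.08-fold in *Htl[ACT]* tissue (1.06 on the log2 scale, standard error 0.11, limma adjusted p = 0.00017). Its log2 fold change of 0.54 in *InR* tissue (95% interval 0.28 to 0.80, adjusted p = 0.00822) was under the fold limit, and it was over that limit without control 1 (0.60, adjusted p = 0.0132) or without *InR* 3 (0.63, adjusted p = 0.00793). The direct difference of 0.52 (adjusted p = 0.0135) was also under the limit, and with median centring it was 0.80 and called (adjusted p = 0.0049).

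*schlank* encodes the ceramide synthase of the fly, a protein that also carries a homeodomain. Its signal was 3847, 3841 and 3637 in *Htl[ACT]* tissue, 2398, 2859 and 2730 in *InR* tissue and 2593, 2492 and 2663 in control tissue. The *Htl[ACT]* arrays lay above all others, and *InR* and control arrays overlapped. The log2 fold change in *Htl[ACT]* tissue was 0.55 (95% interval 0.36 to 0.73, adjusted p = 0.00076), below 1.5-fold with the deposited scaling and called with median centring (0.72, adjusted p = 0.00264). Against *InR* tissue it was 0.51 (adjusted p = 0.0037), and 0.79 and called with median centring (adjusted p = 0.00352). In *InR* tissue it was 0.04 (95% interval −0.15 to 0.23, adjusted p = 0.729), an interval without a 1.5-fold change in either direction.

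*CDase* encodes the neutral ceramidase, which cuts ceramide into sphingosine and a fatty acid and which in the fly is known for its part in photoreceptor survival. It had the largest increase of the 9 genes in *Htl[ACT]* tissue. Its signal was 3524, 3371 and 3346.5 in *Htl[ACT]*, 1530.1, 1501 and 1422 in *InR* and 791, 734 and 766 in control tissue. The 3 groups were far apart relative to the spread within each, and the standard error of 0.07 was the lowest among the 9 genes. *CDase* rose 4.47-fold in *Htl[ACT]* tissue, or 2.16 on the log2 scale (limma adjusted p = 2.6e-06), which ranked it 93 of 8552 from the top. In *InR* tissue it rose 1.94-fold, by 0.96 on the log2 scale (adjusted p = 4.72e-05), at rank 522. The direct difference was 1.20 (standard error 0.07, adjusted p = 3.53e-05). These 3 calls held under each of the 19 alternatives tried for them, with the *Htl[ACT]* value between 2.13 and 2.33 and the *InR* value between 0.85 and 1.02.

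*bwa* is listed as an alkaline ceramidase gene, and enzyme activity was not measured here. Its signal was 377, 545 and 342 on the *Htl[ACT]* arrays, 808, 672 and 777 on the *InR* arrays and 707, 667 and 379.9 on the control arrays. Control 3 lay with the *Htl[ACT]* arrays and apart from the other controls, and the standard error of 0.26 was the highest among the 9 genes. Neither comparison with control was called (log2 fold change −0.45, 95% interval −1.05 to 0.15, adjusted p = 0.172 for *Htl[ACT]*, and 0.41, interval −0.19 to 1.01, adjusted p = 0.248 for *InR*), and both intervals hold changes past 1.5-fold. Without control 3 the *Htl[ACT]* value was −0.73 and called lower (adjusted p = 0.0189). Between the tissues *bwa* was lower in *Htl[ACT]* (log2 fold change −0.86, adjusted p = 0.044). This call did not hold without control 2, *Htl[ACT]* 1, *Htl[ACT]* 3, *InR* 1, *InR* 2 or *InR* 3 (log2 fold changes of −0.94 to −0.73, adjusted p = 0.0565 to 0.123), without control 2, *InR* 2 and *InR* 3 together (−0.97, adjusted p = 0.245), with no filter on signal (−0.86, adjusted p = 0.147), with quantile normalization (−0.79, adjusted p = 0.0671) or with median centring (−0.58, adjusted p = 0.0859).

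*nSMase* encodes a neutral sphingomyelinase, an enzyme that releases ceramide from phosphosphingolipids. It read 1572, 1747 and 1620.2 in *Htl[ACT]*, 1802, 1946 and 1748 in *InR* and 1879, 2131 and 2092 in control tissue. The *Htl[ACT]* arrays lay below the others, the highest by a narrow margin, while *InR* and control arrays overlapped. The log2 fold change in *Htl[ACT]* tissue was −0.30 (95% interval −0.49 to −0.12, adjusted p = 0.013 from limma), an interval that does not reach 1.5-fold. In *InR* tissue it was −0.15 (interval −0.34 to 0.04, adjusted p = 0.182).

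*Sk1* and *Sk2* encode the sphingosine kinases of the fly, which make sphingosine 1-phosphate. The *Sk1* signal was 46.5, 42.9 and 34.3 in *Htl[ACT]* tissue, 83, 85 and 69.7 in *InR* tissue and 42.5, 35.6 and 44.3 in control tissue. All *InR* arrays lay above all others, and *Htl[ACT]* and control arrays overlapped. The *Htl[ACT]* and control values are close to the median signal of the arrays. *Sk1* rose 1.94-fold in *InR* tissue (0.96 on the log2 scale, standard error 0.14, limma adjusted p = 0.00188). In *Htl[ACT]* tissue the log2 fold change was 0.01 (95% interval −0.32 to 0.34, adjusted p = 0.955), and *Htl[ACT]* tissue was below *InR* tissue (−0.95, adjusted p = 0.00277). Both calls of *Sk1* held with each single array left out. With a pseudocount of 7.86 the *InR* value was 0.84 and still called.

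Markers of tissues next to the CNS moved with the *InR* arrays as well. Of 4 tested ring gland markers 4 were called higher in *InR* tissue, and the summed signal of the 5 on the array was 222 to 881 in *Htl[ACT]*, 1109.9 to 2356 in *InR* and 207 to 336 in control tissue. Of 5 tested hemocyte markers 2 were higher, with sums over 7 markers of 337 to 814 in *Htl[ACT]*, 1175 to 3049 in *InR* and 790.1 to 900 in control tissue. Of 3 tracheal markers 2 were higher, with sums of 1373 to 1548 in *Htl[ACT]*, 1819 to 1874 in *InR* and 1055 to 1529 in control tissue. In *Htl[ACT]* tissue against control 1 ring gland marker was called higher, 1 hemocyte marker lower and 0 tracheal markers either way. For *Htl[ACT]* against *InR*, 3 of 4 ring gland, 5 of 5 hemocyte and 2 of 3 tracheal markers were called lower. No marker was at 0, and the part of these tissues in the *Sk1* signal was not tested. The 3 fat body markers summed to 609 to 1011 in *Htl[ACT]* tissue, to 842, 18738 and 9876 on *InR* arrays 1 to 3 and to 660, 6944 and 585 on control arrays 1 to 3. Without the 3 arrays high in them (control 2, *InR* 2 and *InR* 3) the *Sk1* value was nearly the same at 0.94, but with a single *InR* array left it was not called (adjusted p = 0.0837, and 0.0644 for *Htl[ACT]* against *InR*), while *CDase* stayed called (adjusted p = 0.0251).

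*Sk2* read 1369, 1179 and 1206 in *Htl[ACT]*, 1326, 1188 and 1110 in *InR* and 1023, 1009 and 991 in control tissue. *Htl[ACT]* and *InR* arrays lay above all controls and overlapped with each other. The log2 fold change was 0.31 in *Htl[ACT]* tissue (95% interval 0.10 to 0.52, adjusted p = 0.0184 from limma) and 0.26 in *InR* tissue (interval 0.05 to 0.46, adjusted p = 0.0538). Both intervals end below 1.5-fold, and the direct difference was 0.05 (interval −0.15 to 0.26).

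*Sply* encodes the sphingosine 1-phosphate lyase. It read 1085, 1201 and 966 in *Htl[ACT]*, 1016, 1076 and 1108 in *InR* and 1031, 1265 and 1023 in control tissue, with all 3 groups overlapping. Its log2 fold changes of −0.03 and −0.05 against control (95% intervals −0.29 to 0.23 for *Htl[ACT]* and −0.31 to 0.21 for *InR*) and of 0.02 for *Htl[ACT]* against *InR* were all within 1.5-fold at both ends of their intervals.

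**Figure D2:**
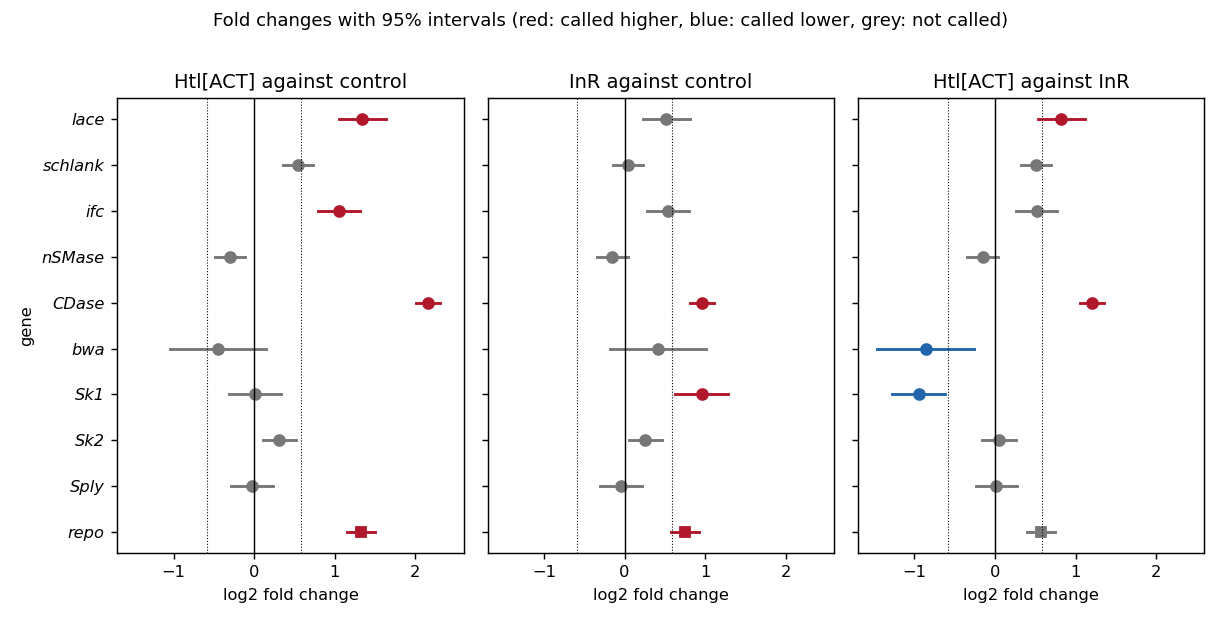
Log2 fold changes (x axes) of the 9 genes and of the glial gene repo (square) in 3 panels, Htl[ACT] over control, InR over control and Htl[ACT] over InR, with 95% intervals from limma. Dotted lines mark 1.5-fold. CDase lies right of repo in all 3 panels, Sk1 lies right of 0 for InR, at 0.96, and on it for Htl[ACT], at 0.01, and the intervals of Sk2 and Sply end within the dotted lines.

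The homeobox gene *repo*, 1 of the 7 glial markers above, gives 1 scale for these changes. Its signal was 8386, 8349 and 8359 in *Htl[ACT]*, 5510, 5461 and 5914 in *InR* and 3545, 3055 and 3449 in control tissue. The log2 fold change of *repo* was 1.32 (95% interval 1.148 to 1.498) in *Htl[ACT]* and 0.75 (interval 0.58 to 0.93) in *InR* tissue. In *Htl[ACT]* tissue *CDase* (2.16, interval 2.01 to 2.31) had an interval above that of *repo*, *lace* (1.05 to 1.64) and *ifc* (0.80 to 1.31) had intervals that overlap it, and the intervals of the other 6 genes lay below it. In *InR* tissue 2 of the 9 estimates were above that of *repo*, *CDase* (0.81 to 1.11) and *Sk1* (0.63 to 1.28), and both intervals overlap its own. No difference between genes was tested. The 7 glial markers, *repo* among them, had a median log2 fold change of 1.65 in *Htl[ACT]* and of 0.62 in *InR* tissue. *zyd* read 8379, 6682 and 7373 in *Htl[ACT]* and 1193, 1478 and 1510 in control tissue. *moody* read 13224, 13437 and 14787.5 in *InR* and 2815, 2352 and 3128 in control tissue, while *Gs2* overlapped the controls in both. A value above *repo* is therefore not a value above glial markers in general.

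A wider list of 29 genes was drawn up around these 9, of which 26 had a probe set of their own and 20 passed the filter on signal. *Gba1a*, *Gba1b* and *Hexo1* are not analysed here, and *Fa2h*, *GlcT*, *alpha4GT2*, *CG15533*, *CG15534* and *laza* were too dim. Of the 20, 10 were called higher and 1 lower in *Htl[ACT]* tissue, with a median of 0.59 on the log2 scale (−0.15 over all tested genes), and 2 were lower at an unadjusted p under 0.05, *CG32052* and *Cerk*. In *InR* tissue 9 were higher and 0 lower by limma, with 1 lower at an unadjusted p under 0.05, at a median of 0.49 (−0.09 over all). Between the tissues, 2 were higher and 1 lower in *Htl[ACT]*, at a median of 0.15 (−0.08 over all). With median centring these counts were 8 and 0, with *Kdsr* (0.72), *ORMDL* (0.69), *cert* (0.75), *brn* (0.79), *beta4GalNAcTB* (0.59) and *Aldh-III* (0.63) gaining a call and *CG32052* (−0.47) losing it. With this centring the calls over all genes between the tissues moved as well, to 1013 higher and 247 lower from 464 and 552. The percentages of all genes called, given above, are those with the deposited scaling.

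Of 3 genes of de novo synthesis 2 rose, *Spt-I* and *Kdsr*, and both did so in *Htl[ACT]* (13.0% of all tested genes) and in *InR* tissue (9.24%). *Spt-I*, the other subunit of serine palmitoyltransferase, read 2049, 1959.7 and 1569 in *Htl[ACT]*, 1857, 1750.4 and 1620.3 in *InR* and 996, 978 and 1026 in control tissue. *Htl[ACT]* and *InR* arrays were above the controls and overlapped with each other, whereas those of *lace* did not. Its log2 fold changes were 0.89 for *Htl[ACT]* and 0.80 for *InR* (adjusted p = 0.000321 and 0.00127 from limma). For *Htl[ACT]* against *InR* it was at 0.09 (95% interval −0.16 to 0.34), where *lace* was at 0.82 (0.53 to 1.12). *Kdsr*, the reductase that follows, read 801, 826 and 823 in *Htl[ACT]*, 564, 620.3 and 623 in *InR* and 342, 382 and 372 in control tissue and rose by 1.16 and 0.72. *ORMDL*, of a family that in yeast and mammals restrains serine palmitoyltransferase, was at 0.52 and 0.11 and was not called, though called higher in *Htl[ACT]* tissue with quantile normalization (0.62) or median centring (0.69).

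Of 9 genes of ceramide transfer and head groups 2 rose in *Htl[ACT]* (13.0% of all tested genes) and 1 in *InR* tissue (9.24%). *Cpes*, the ceramide phosphoethanolamine synthase that makes the main phosphosphingolipid of the fly, read 1553, 1574 and 1624 in *Htl[ACT]*, 1205, 1380.3 and 1274 in *InR* and 768, 744 and 777 in control tissue. The 3 groups did not overlap, and its log2 fold changes were 1.05 and 0.75 (adjusted p = 2.34e-05 and 0.00021 from limma). The ceramide transfer protein gene *cert* rose by 0.66 in *Htl[ACT]* tissue (adjusted p = 0.00856), under 1.5-fold without *Htl[ACT]* 1 (0.55), and was at 0.19 in *InR* tissue. The glycosphingolipid glycosyltransferase genes *alpha4GT1* and *egh* were at 0.38 and −0.05 in *Htl[ACT]* and at 0.22 and −0.03 in *InR* tissue and were not called. *Cerk* and *SMSr*, like *brn* and *beta4GalNAcTB* above, were chosen for naming after their values were seen. *Cerk*, the ceramide kinase gene, read 291, 294 and 377 in *Htl[ACT]*, 427, 382 and 407 in *InR* and 462, 455 and 465 in control tissue. All *Htl[ACT]* arrays lay below all controls, and the log2 fold change of −0.53 (95% interval −0.78 to −0.29, adjusted p = 0.00345 from limma) was under 1.5-fold, but called lower without *Htl[ACT]* 3 (−0.66). *SMSr*, of the sphingomyelin synthase related family, read 714, 689.6 and 697 in *Htl[ACT]*, 865, 717 and 614 in *InR* and 487, 503 and 464 in control tissue. It was at 0.53 in *Htl[ACT]* and at 0.58 in *InR* tissue (adjusted p = 0.00533 and 0.00701), both under 1.5-fold with all arrays above all controls. The *Htl[ACT]* value was called with quantile normalization (0.64) or median centring (0.71). The *InR* value was called with quantile normalization (0.63), without control 1 (0.59), control 2 (0.61), *InR* 2 (0.59) or *InR* 3 (0.70), and without control 2, *InR* 2 and *InR* 3 together (0.86).

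Of 8 genes of breakdown 6 were called higher in each tissue, against 13.0% of all tested genes in *Htl[ACT]* and 9.24% in *InR* tissue. *CG3376*, of the acid sphingomyelinase family, read 3044.5, 4477 and 3275 in *Htl[ACT]*, 2019.6, 1605 and 2012 in *InR* and 992, 981 and 794 in control tissue. It rose by 1.95 and 1.03 (adjusted p = 6.45e-05 and 0.0031 from limma) and between the tissues was 0.93 higher in *Htl[ACT]* (adjusted p = 0.00671). The hexosaminidase gene *Hexo2* read 4083, 4292 and 4039 in *Htl[ACT]*, 1116, 1405 and 1392 in *InR* and 1034, 1229 and 1012 in control tissue. Only the *Htl[ACT]* arrays stood apart, with a rise of 1.93 (adjusted p = 1.34e-05), a value of 0.25 in *InR* tissue (95% interval −0.01 to 0.52) and a direct difference of 1.67 (adjusted p = 8.06e-05). *spin*, which encodes a lysosomal transporter, rose by 1.01 and 0.90, and the fatty aldehyde dehydrogenase gene *Aldh-III* by 0.96 and 0.61. The *InR* call of *Aldh-III* did not hold without control 3 (0.58) or *InR* 1 (0.57) or with median centring (0.51).

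The lipid phosphate phosphatase genes *wun* and *wun2* rose by 0.76 and 0.75 in *Htl[ACT]* and by 0.63 and 1.22 in *InR* tissue. *wun2* read 1423, 1603 and 1655 in *Htl[ACT]*, 2209.5, 2143 and 2122 in *InR* and 886, 1021 and 879 in control tissue, so the *InR* arrays were the highest, and the difference of *Htl[ACT]* from *InR*, −0.47 (adjusted p = 0.00737), was under 1.5-fold. The *InR* call of *wun* did not hold without control 3 (0.58) or with median centring (0.53). *Sap-r*, the saposin precursor, was at 0.53 in *Htl[ACT]* and called at 0.59 in *InR* tissue. The *Htl[ACT]* value was over the limit without control 1 (0.60) or control 2 (0.59) and with median centring (0.70), and the *InR* value under it without control 3 (0.45) or *InR* 1 (0.54), with quantile normalization (0.51) and with median centring (0.48). *CG32052*, also of the acid sphingomyelinase family, was the 1 gene of the list called lower in *Htl[ACT]* tissue.

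*CG32052* read 66.7, 52 and 73.6 in *Htl[ACT]*, 104.3, 95.7 and 122.3 in *InR* and 151.6, 137.9 and 192.9 in control tissue. The 3 groups did not overlap. It fell by 1.33 on the log2 scale in *Htl[ACT]* tissue (adjusted p = 0.000407 from limma) and was at −0.575 in *InR* tissue, just under 1.5-fold, and over it without control 2 (−0.68), without *InR* 3 (−0.67) or with quantile normalization (−0.62). The direct difference of −0.75 (adjusted p = 0.0163) was not called without *InR* 3 (−0.66, adjusted p = 0.0524) or without a filter on signal (−0.75, adjusted p = 0.0758), where the fold stayed over 1.5, or with quantile normalization (−0.46, adjusted p = 0.13) or median centring (−0.47, adjusted p = 0.17), where it did not. Without control 2, *InR* 2 and *InR* 3, the *InR* calls of *Spt-I*, *Kdsr*, *Cpes*, *CG3376*, *Sap-r* and *wun* were lost (adjusted p = 0.0582 to 0.117, log2 fold changes of 0.64 to 1.19), as were the calls of *CG3376* (0.81, adjusted p = 0.16) and *CG32052* (−0.72, adjusted p = 0.174) between the tissues.

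**Figure D3:**
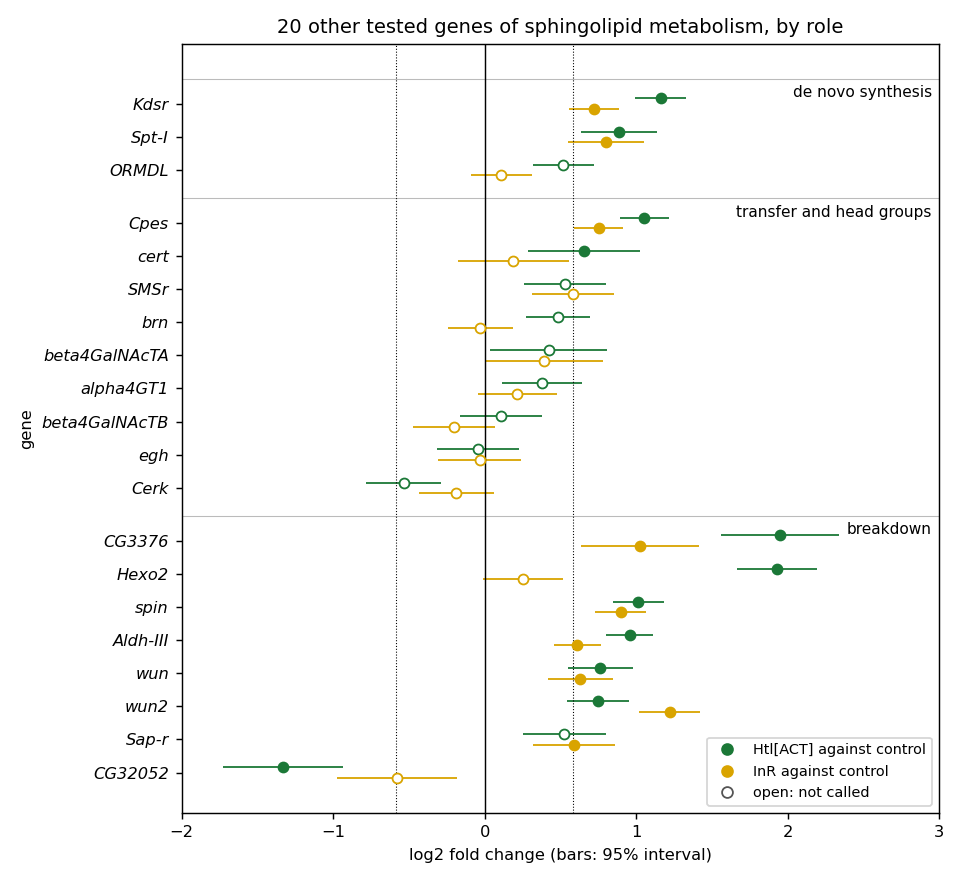
Log2 fold changes against control (x axis) of the 20 tested genes of the wider list, grouped by role, with 95% intervals from limma. Green marks Htl[ACT] and yellow InR tissue, filled points are called at 1.5-fold and an adjusted p of 0.05, and dotted lines mark 1.5-fold. Most genes of synthesis and breakdown lie right of 0 in both tissues, Hexo2 is raised in Htl[ACT] tissue alone, and CG32052 lies left of 0.

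The tested genes whose log2 signal was most like that of *CDase* over the 9 arrays were *CG33080*, *hfw*, *GrlHz*, *Acadvl* and *CG1544*, with a Pearson r of 0.994 to 0.997. *Acadvl*, an acyl-CoA dehydrogenase of fatty acid oxidation, read 4978, 5099 and 4929 in *Htl[ACT]*, 2939.8, 2806 and 2814 in *InR* and 2002, 1959.8 and 2084 in control tissue. Like *CDase*, all 5 had *Htl[ACT]* highest and *InR* in between, with log2 fold changes of 1.31 to 2.54 and of 0.50 to 1.16. Most like *Sk1* were *Pvf2*, which encodes a ligand of the PDGF and VEGF receptor of the fly, *ltl*, the anion transporter gene *Prestin*, *CG30015* and *CG12112*, with an r of 0.96 to 0.97. *Pvf2* read 80.3, 59 and 62.2 in *Htl[ACT]*, 450.1, 478 and 252 in *InR* and 67, 42 and 57.4 in control tissue. In these 5 genes the *InR* arrays stood apart, with log2 fold changes of 0.69 to 2.80, against −0.17 to 0.32 for *Htl[ACT]*. The correlations describe 9 arrays in 3 groups and were picked as the highest of all single genes.

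**Figure D4:**
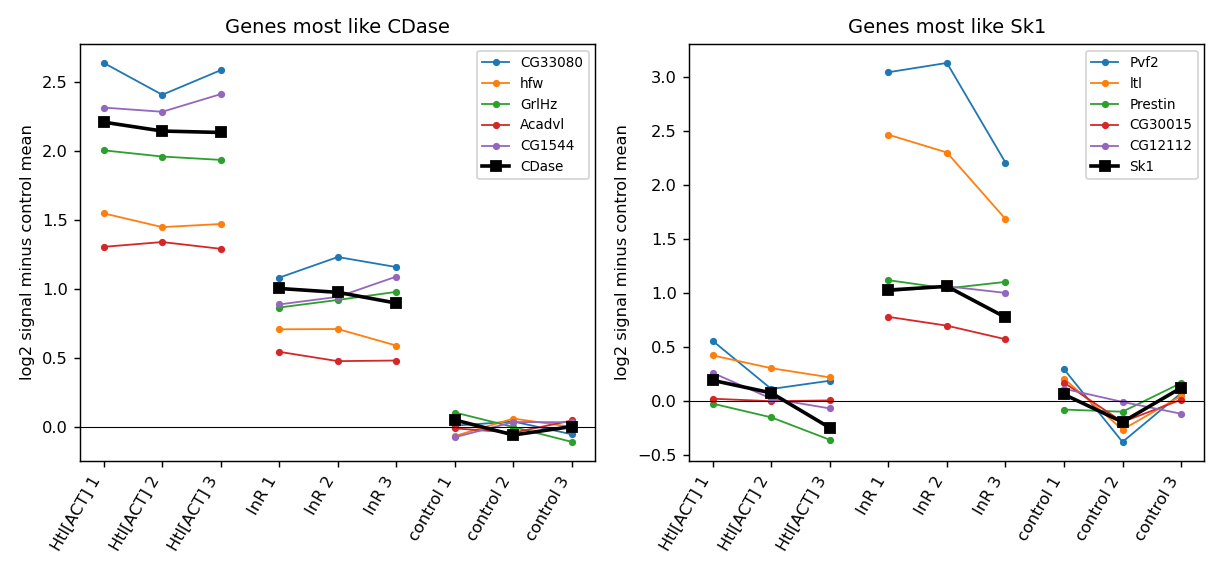
Log2 signal of CDase (left) and Sk1 (right), in black, and of the 5 genes most like each, as the difference from the mean of the 3 control arrays (y axes), on each of the 9 arrays, with lines joining arrays of 1 group. The CDase genes step down from Htl[ACT] to InR to control arrays, and the Sk1 genes are raised on the InR arrays.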

How the data were processed

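The authors made linear signals (intensity) per probe set with MAS5 in Affymetrix Expression Console, scaled to a 2% trimmed mean of 500.0 on each array, from cRNA of 500 ng of RNA. They are not logged. The detection calls and the SAM test of the study were not used. The array holds 18952 probe sets. Leaving out 183 controls, GEO's platform annotation gives 13646 a single gene, 402 more than 1 gene and 4721 no gene, and 11893 of 11982 gene IDs were in the RefSeq gene table. For 1094 genes with several probe sets the brightest was used, giving 17105. The brighter 8552 (mean signal from 35.2) were fitted as log2 signals with limma 3.58.1 (R 4.3.3) in 3 groups, with 6 residual degrees of freedom. The code was first run on 10 simulated sets with independent arrays and 200 changed genes each. Fewer genes changed there than were called in *Htl[ACT]* tissue here, so this does not test how well the fit suits these data. The number of arrays limits the precision (median standard error 0.12). Python 3.11.15, numpy 2.4.6, pandas 2.3.3 and matplotlib 3.10.9 served for tables and plots.

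The 9 genes, the lists and the tests were chosen with earlier results of these data known. Genes named were the 9 members, all called genes of the wider list and the 3 brightest not called. Named too were the 5 genes most correlated with *CDase*, the member with the largest change, and with *Sk1*, the next largest in *InR* tissue. *repo*, *htl* and *InR* were added, though *htl* and *InR* do not check the labels. Glial and disc markers other than *repo* were named after their values were seen. The fits were repeated after quantile normalization or median centring, without the filter or with the brightest 5701, with a pseudocount of 7.86, on the 6 arrays compared, with a replicate block, with trend and robust settings in limma, with probe sets of a gene averaged, and without each array or the 3 arrays high in fat body markers. Same-numbered control and *InR* arrays deviated together from their group means (r = 0.50, 0.37 and 0.23 over tested genes). Those of different number were at r = −0.424 to 0.095. Deviations from a group mean cancel within the group, so positive values for the same number pull these down. They are therefore no separate sign of pairing. *Htl[ACT]* 2 also deviated together with control 1 (r = 0.285) and *InR* 1 (r = 0.321), which have another number. The numbers may pair control and *InR* arrays, but the labels do not state it. The p-values given are from fits without pairing, except where the replicate block is named.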

Additional observations from a re-analysis of the deposited data

How the results depend on the processing

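Of 510 values of the 9 genes over up to 19 alternatives, 470 kept their direction and side of the threshold, 13 lost and 7 gained a call and 20 changed sign, and the cause was not tested. *Sk1* was too dim for the brightest 5701. With the replicate block no call of the 9 genes changed (27 values, among them *CDase* in *InR* tissue, adjusted p = 0.000408). Same-numbered *Htl[ACT]* arrays did not all deviate together with control (r = −0.04, −0.06 and 0.20) or *InR* arrays (−0.04, −0.17 and 0.38). None of the sign changes was of a called value. With median centring *nSMase* for *Htl[ACT]* against *InR* was 0.13, *schlank* in *InR* tissue −0.0654 and *Sply* in *Htl[ACT]* tissue 0.15. With quantile normalization *Sply* was 0.0597 in *Htl[ACT]* and 0.0198 in *InR* tissue. With each array left out in turn, the ranges were −0.0132 to 0.114 for *schlank* in *InR*, −0.0842 to 0.138 for *Sk1* in *Htl[ACT]*, −0.0146 to 0.121 for *Sk2* and −0.058 to 0.0988 for *Sply* in *Htl[ACT]* against *InR*, −0.104 to 0.0727 for *Sply* in *Htl[ACT]* and −0.0989 to 0.0541 for *Sply* in *InR* tissue.

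Without control 2, *InR* 2 and *InR* 3 the values were −0.13 for *schlank* in *InR*, −0.0842 for *Sk1* in *Htl[ACT]*, −0.0869 for *Sk2* in *Htl[ACT]* against *InR* and 0.0727 for *Sply* in *Htl[ACT]* tissue. Of the 9 genes, 1 was then higher in *InR* tissue, 1 higher and 0 lower in *Htl[ACT]* against *InR*, and of the wider list 4, 1 and 0, with the single *InR* array assumed to vary like the others and fewer samples. With median centring 4 of the 9 genes and 8 of the wider list were higher in *Htl[ACT]* against *InR*, and 1 and 0 lower. Over all genes this centring gave 1013 higher and 247 lower, where the deposited scaling gave 464 and 552. For the same contrast, 1 of the 9 was lower with quantile normalization, no filter or the brightest 5701, and 0 of the wider list with quantile normalization or the brightest 5701. The brightest 5701, with fewer genes tested, gave 1 of the 9 higher in *InR* tissue and 0 of the wider list lower in *Htl[ACT]* tissue, and quantile normalization 1 of the wider list lower in *InR* tissue.

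With each array left out, the count of the 9 genes higher in *InR* tissue was 2 to 4, lower in *Htl[ACT]* tissue 0 to 1 and lower in *Htl[ACT]* against *InR* 1 to 2. For the wider list 1 to 2 were lower in *Htl[ACT]*, 0 to 1 in *InR* and 0 to 1 in *Htl[ACT]* against *InR*. The brightest 5701 gave 481 higher and 308 lower genes of all in *InR*, 943 lower in *Htl[ACT]* and 244 lower in *Htl[ACT]* against *InR*. No filter gave 348 lower in *InR* and 366 lower in *Htl[ACT]* against *InR*. Leaving out control 2, *InR* 2 and *InR* 3 gave 265 higher and 56 lower in *InR*, and 187 higher and 104 lower in *Htl[ACT]* against *InR*.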
